A study of Mus musculus with 9 samples.

Results

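The genes described here act in the making, sensing and removal of prostaglandins and leukotrienes in the mouse mammary gland. They are the phospholipases A2 Pla2g4a and Pla2g12a, the cyclooxygenases Ptgs1 and Ptgs2, the prostaglandin D2 synthase Ptgds, the prostaglandin dehydrogenase Hpgd, the 5-lipoxygenase activating protein Alox5ap and the leukotriene C4 synthase Ltc4s. They were chosen by name, and every probe set that the platform annotation gives to one of these symbols was used. Of the 8 genes, 6 had a probe set, with 10 probe sets in all, out of 8251 genes and 12422 probe sets on the array. Ptgs1 and Alox5ap were not analysed here. RNA came from the whole inguinal (No4) gland of wild-type female C57BL/6J mice, an inbred line, and was hybridised to Affymetrix MG-U74Av2 arrays. Virgin glands at 6 weeks of age (puberty) were on 3 arrays. Glands at day 14 of pregnancy were on 2, lactating glands at day 10 on another 2, and glands in involution, the regression after weaning, on 2 taken at day 4. No treatment was named for any group, and the arrays of a stage were biological replicates.

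Prostaglandins and leukotrienes, the eicosanoids, are short-lived lipid signals made from arachidonic acid. Phospholipases A2 free the acid from membranes, cyclooxygenases turn it into prostaglandin H2 and terminal synthases shape the separate prostaglandins, whereas the 5-lipoxygenase branch leads to leukotriene A4 and, by Ltc4s, to the cysteinyl leukotrienes. Hpgd oxidises prostaglandins to inactive products and so ends their signal. In the mammary gland these lipids are known as signals of inflammation and of tissue remodelling.

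The promoters of the genes with the largest differences between stages, Hpgd, Ltc4s and Pla2g12a, are shown here so that the changes in signal can be read beside the sequence at each start site. Each window runs 5′ to 3′ along the gene's strand for 300 bases, from 250 before to 50 after the start, in RefSeq's assembly GRCm38.p6. Capitals mark matches, on either strand, to a GC box (GGGCGG), to the TATA motif in the form TATAAA, to the box named CCAAT, to an E box (CACGTG) or to the core of STAT sites (TTCNNNGAA). The Hpgd window lies at chr8:56294302-56294601 on the plus strand, that of Ltc4s at chr11:50238483-50238782 on the minus strand and that of Pla2g12a at chr3:129880934-129881233 on the plus strand.
Hpgd: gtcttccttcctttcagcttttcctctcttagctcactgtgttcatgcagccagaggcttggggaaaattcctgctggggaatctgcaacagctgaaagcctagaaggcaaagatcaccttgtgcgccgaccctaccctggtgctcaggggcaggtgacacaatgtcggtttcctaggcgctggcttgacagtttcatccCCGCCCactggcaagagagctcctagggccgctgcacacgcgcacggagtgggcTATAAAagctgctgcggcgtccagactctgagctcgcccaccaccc
Ltc4s: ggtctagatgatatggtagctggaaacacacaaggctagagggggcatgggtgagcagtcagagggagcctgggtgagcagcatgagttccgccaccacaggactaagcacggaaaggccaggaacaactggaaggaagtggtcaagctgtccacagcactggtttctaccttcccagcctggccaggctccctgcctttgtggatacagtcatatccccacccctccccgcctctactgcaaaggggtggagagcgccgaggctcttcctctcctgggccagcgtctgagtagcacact
Pla2g12a: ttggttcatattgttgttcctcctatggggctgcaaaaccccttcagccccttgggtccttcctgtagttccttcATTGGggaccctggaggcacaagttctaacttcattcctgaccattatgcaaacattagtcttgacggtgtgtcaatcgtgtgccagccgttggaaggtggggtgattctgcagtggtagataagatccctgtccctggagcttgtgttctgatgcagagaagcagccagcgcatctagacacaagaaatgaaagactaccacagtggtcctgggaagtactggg

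The Hpgd window holds a GC box on the reverse strand, 50 bases before the start, and TATAAA 4 bases after it. The Pla2g12a window holds CCAAT on the reverse strand, 175 bases before the start, and the Ltc4s window holds none of the 5 motifs. Among all 32851 promoter windows of this length, 35.7% hold GGGCGG, 13.6% TATAAA, 37.4% CCAAT, 7.15% CACGTG and 8.3% TTCNNNGAA. These matches describe the letters only, and binding was not measured.

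A signal here is the brightness of a probe set on a linear scale after the arrays were brought to equal medians. Signals below a floor of 20 were set to 20 before log2 was taken, and a probe set was tested if its mean signal was above 20 in at least 1 stage. limma's F test asked whether the 4 stages differed, its contrasts compared pairs of stages, and a call is an adjusted p under 0.05 (Benjamini-Hochberg over 9783 tested probe sets). The 6 contrasts share arrays and are not independent of each other. Of the 10 probe sets of these genes, 8 from 5 genes were tested, and those of Ptgs2 and the second of Ltc4s lay below the floor on all 9 arrays. As a check of the stage labels, the summed signal of 6 milk protein genes was 440.0 to 2130.0 at puberty, 26994 to 29739 in pregnancy, 119120 to 152461 in lactation and 19889 to 21923 in involution. Over probe sets, r was 0.960 to 0.981 for pairs of arrays within a stage and 0.792 to 0.952 for pairs across stages.

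Most calls of these genes were in contrasts with lactation, as they were over all tested probe sets. Of the 9783 tested, 4035 to 4680 were called in a contrast with lactation and 697 to 1118 in the other contrasts. Hpgd and Ltc4s were lowest there, Pla2g12a and Ptgds were highest there, and of the tested genes Hpgd alone was called higher in involution than in each of the other stages. By the F test, 5 of the 8 tested probe sets passed, from 4 of 5 genes, against 51.6% of all probe sets tested. Between pregnancy and lactation 3 of them rose and 2 declined, where 21.6% of all tested rose and 19.7% fell. Against puberty, lactation likewise had 3 higher and 2 lower, with 26.1% and 21.8% over all tested. From lactation to involution 2 rose and 3 fell, beside 22.1% and 23% of all. The median log2 difference from pregnancy to lactation was 0.33 over the 8 and 0.07 over all tested, and from lactation to involution it was -0.04 and -0.03.

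The other stages differed less. From puberty to pregnancy 0 of the 8 rose and 1 fell, against 6.2% higher and 5.22% lower over all tested. In involution 1 of the 8, that of Hpgd, was higher than at puberty and 0 were lower (4.39% and 3.1% over all). The same probe set was the only one of the 8 that was higher in involution than in pregnancy, and again 0 were lower (4.03% and 3.1% over all). All these counts come from 8 probe sets of 5 genes. In whole tissue, fewer cells of a type and less RNA per cell cannot be told apart, and this holds for every difference below.

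**Figure D1:**
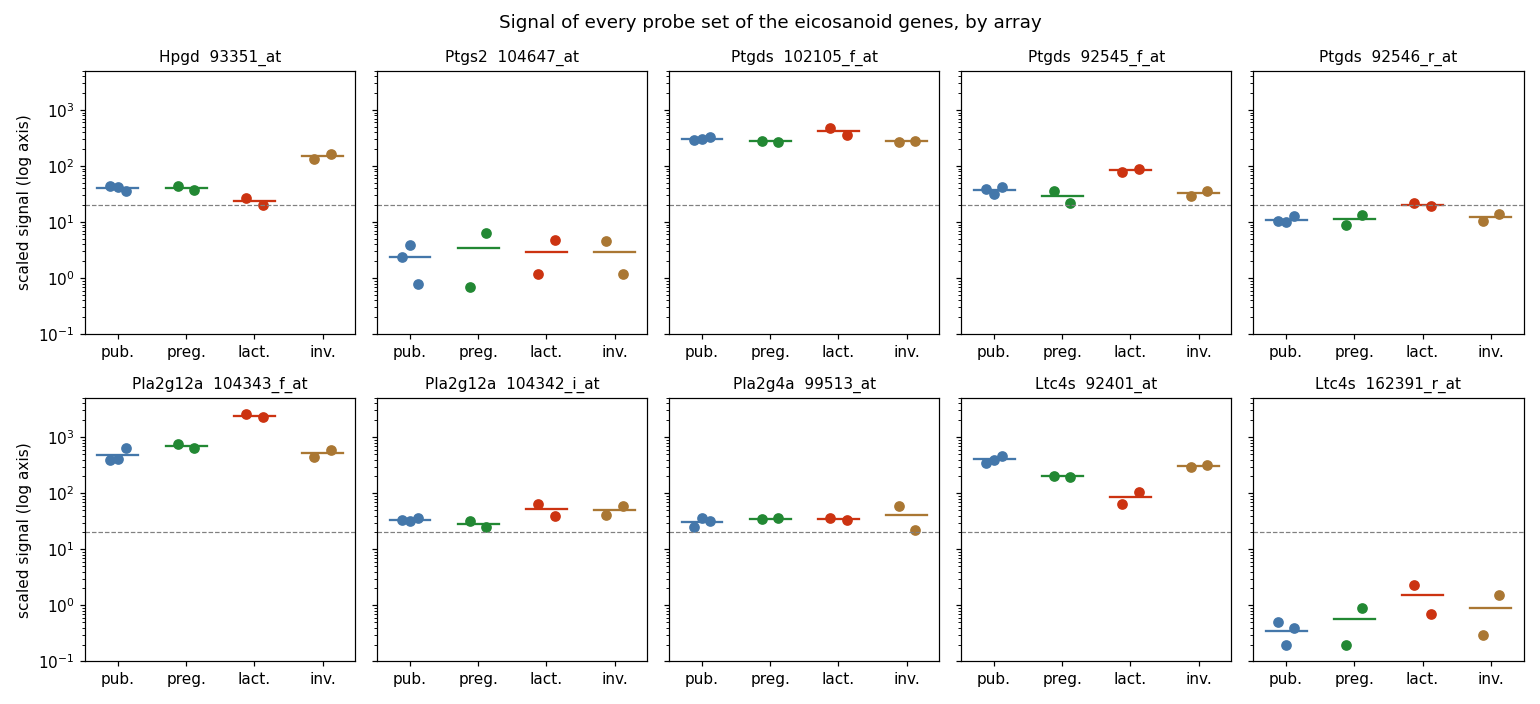
Scaled signal (log axis, 1 panel per probe set) on each array by stage (pub., puberty, 3 arrays; preg., pregnancy, 2; lact., lactation, 2; inv., involution, 2); points are arrays, short lines mark the mean of each stage and a dashed line marks the floor, 20. The involution points of Hpgd 93351_at, at 134.6 and 162.5, lie above the other 7 arrays, the lactation points of Pla2g12a 104343_f_at lie above all others, and Ptgs2 and Ltc4s 162391_r_at stay under the floor.

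Arachidonate release comes first in the pathway. Pla2g12a encodes a small secreted phospholipase A2. On its probe set 104343_f_at the signal was 399, 416 and 636 at puberty, 755 and 629 in pregnancy, 2594 and 2261 in lactation, and 442 and 589 in involution. Both lactation arrays lay far above the other 7, among which the puberty arrays overlapped with those of pregnancy and of involution, and both pregnancy arrays were above both involution arrays. The stage means were 484 ± 132 (SD, n = 3), 692 ± 89.0 (SD, n = 2), 2427 ± 235 (SD, n = 2) and 516 ± 104 (SD, n = 2). The log2 difference from pregnancy to lactation was 1.81 (SE 0.245, limma adjusted p = 0.000697), a 3.52-fold rise. Against puberty the gene was 5.12-fold higher in lactation (2.36 on the log2 scale, SE 0.224, adjusted p = 7.24e-05), and from lactation to involution it fell by 2.25 (SE 0.245, adjusted p = 0.000184). The difference between involution and puberty was 0.11, with a 95% interval of -0.40 to 0.62. The 3 calls were kept under all 19 alternatives tried.

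The other probe set of Pla2g12a, 104342_i_at, did not share this pattern. Its signals were 33.8, 31.5 and 36.4 at puberty, 31.8 and 25.4 in pregnancy, 64.3 and 38.8 in lactation, and 40.4 and 59.9 in involution. The lactation and involution arrays overlapped with each other and lay above the other 5. It did not pass the F test (adjusted p = 0.0967), although it passed at 0.048 without lactation replicate 2, when lactation is 1 array. The difference from pregnancy to lactation was 0.81 (SE 0.305, adjusted p = 0.0611), and that from lactation to involution was -0.02, with an interval of -0.72 to 0.67. Over the 9 arrays the log2 signals of the pair correlated with r = 0.470. The fall of Pla2g12a after lactation therefore rests on 104343_f_at.

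Pla2g4a encodes the cytosolic phospholipase A2, which prefers arachidonate and is recruited to membranes by calcium. Its signals were 24.8, 35.5 and 32.0 at puberty, 34.4 and 35.5 in pregnancy, 35.7 and 32.8 in lactation, and 59.7 and 22.1 in involution. The involution arrays held both the highest and the lowest of the 9, and no stage stood apart. The means ran from 30.8 ± 5.43 (SD, n = 3) at puberty to 40.9 ± 26.6 (SD, n = 2) in involution. No difference passed the test (F adjusted p = 0.913). The 95% intervals of the 6 log2 differences reached from -0.96 to 1.10, so that changes of up to about that size were not excluded.

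The cyclooxygenase step is nearly blank on this array. Ptgs2, the inducible cyclooxygenase, gave signals of 2.4, 3.9 and 0.8 at puberty, 0.7 and 6.3 in pregnancy, 1.2 and 4.7 in lactation, and 4.5 and 1.2 in involution. All 9 lay under the floor and overlapped, the probe set was not tested, and no fold is given. On chromosome 1, Ptgs2 and Pla2g4a are neighbours with 2 genes between them, 0 of which code for protein.

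Ptgds encodes lipocalin-type prostaglandin D2 synthase, which turns prostaglandin H2 into prostaglandin D2. It had 3 probe sets. On 102105_f_at the signals were 291, 300.1 and 325 at puberty, 277 and 271 in pregnancy, 485 and 352 in lactation, and 269 and 280 in involution. Both lactation arrays were above the other 7, but they were also the farthest apart of any stage (419 ± 93.7, SD, n = 2), and pregnancy and involution overlapped at means of 274 ± 4.09 and 274 ± 7.89 (SD, n = 2 each). The log2 difference was 0.59 from pregnancy to lactation (SE 0.167, adjusted p = 0.0207), 0.44 from puberty to lactation (SE 0.152, adjusted p = 0.0424) and -0.59 from lactation to involution (SE 0.167, adjusted p = 0.0193). The F test passed narrowly (adjusted p = 0.0409) and was lost in 14 of 19 alternatives, as was the difference from puberty in 15 of 19. The rise from pregnancy was lost without pregnancy replicate 1 or 2 (adjusted p = 0.0776 and 0.0849), and the fall to involution without involution replicate 1 or 2 (adjusted p = 0.0752 and 0.0535).

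On 92545_f_at the same gene gave 38.9, 32.1 and 41.7 at puberty, 35.7 and 21.6 in pregnancy, 79.2 and 89.6 in lactation, and 29.6 and 36.1 in involution. The lactation arrays were again the highest, with the other stages overlapping below them. The mean of 84.4 ± 7.31 (SD, n = 2) was 3.03-fold above pregnancy on the fitted scale (log2 difference 1.60, SE 0.287, adjusted p = 0.00271) and 2.26-fold above puberty (1.17, SE 0.262, adjusted p = 0.00601). From lactation to involution the signal fell by 1.37 (SE 0.287, adjusted p = 0.00511). These 3 differences were called in each of the 18 alternatives that tested the probe set, and its F test (adjusted p = 0.0064) was lost without lactation replicate 2 (adjusted p = 0.065).

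The remaining probe set, 92546_r_at, was near the floor. Its signals were 10.4, 9.9 and 12.8 at puberty, 9.0 and 13.5 in pregnancy, 21.7 and 19.3 in lactation, and 10.4 and 14.2 in involution. The lactation arrays were the highest here too, but 8 of 9 arrays lay under the floor, and the probe set was tested only because its lactation mean reached 20.5. It did not pass the F test (adjusted p = 0.944). Without lactation replicate 2, every array but 1 would be set to the floor, so that the fit has no spread to test against. The log2 signals of 102105_f_at and 92545_f_at correlated over the 9 arrays with r = 0.826. Both _f_at probe sets of Ptgds were thus highest in lactation, with calls on each and sizes that differed. 92546_r_at is not counted with them, because its lactation mean alone let it be tested.

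Hpgd encodes 15-hydroxyprostaglandin dehydrogenase, the main enzyme of prostaglandin breakdown. Its signals on 93351_at were 43.6, 42.9 and 36.3 at puberty, 44.1 and 37.7 in pregnancy, 26.8 and 19.8 in lactation, and 134.6 and 162.5 in involution. Both involution arrays lay above all others and both lactation arrays below all others, lactation replicate 2 just under the floor, whereas puberty and pregnancy overlapped. The means were 40.9 ± 4.01 (SD, n = 3) at puberty, 40.9 ± 4.50 in pregnancy, 23.3 ± 4.93 in lactation and 148.6 ± 19.7 in involution (SD, n = 2 each).

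The largest difference of Hpgd was from lactation to involution, at 2.68 on the log2 scale (SE 0.251, 95% interval 2.11 to 3.25, adjusted p = 9.04e-05), or 6.39-fold. Involution was also above puberty by 1.86 (SE 0.229, adjusted p = 0.00244) and above pregnancy by 1.86 (SE 0.251, adjusted p = 0.00528), 3.63-fold in both cases. The rises from lactation and from puberty kept their calls in all 19 alternatives, and the rise from pregnancy in 18, with an adjusted p of 0.0502 without pregnancy replicate 2. Pregnancy and puberty differed by -0.00, with an interval of -0.52 to 0.52. Hpgd is named in the study's own involution group from these same arrays, so its rise here is not independent evidence.

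The fall of Hpgd into lactation was smaller and less firm. It fell by 0.82 from pregnancy (SE 0.251, adjusted p = 0.0295) and was lower than at puberty by the same amount (-0.82, SE 0.229, adjusted p = 0.0172). The call against pregnancy was lost in 6 of 19 alternatives, among them those without pregnancy replicate 1 (adjusted p = 0.133), without pregnancy replicate 2 (0.0601) and without lactation replicate 2 (0.0791). The call against puberty was lost in 4, among them those without puberty replicate 1 (0.0516), puberty replicate 2 (0.0538) and lactation replicate 2 (0.0628). With a floor of 50 neither could be called, because the arrays of those stages then lie at the floor.

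Ltc4s, which joins leukotriene A4 to glutathione, was highest at puberty and lowest in lactation. Its signals on 92401_at were 352, 395 and 467 at puberty, 206.5 and 197 in pregnancy, 65.5 and 105.7 in lactation, and 294 and 321 in involution. No array of a stage overlapped with an array of another, and the order was puberty, involution, pregnancy and lactation from high to low. With 2 or 3 arrays per stage this order is a description, and not every pair of stages was called. How many of all probe sets lack such overlap was not counted. The means were 405 ± 58.2 (SD, n = 3), 308 ± 19.0, 202 ± 6.73 and 85.6 ± 28.4 (SD, n = 2 each) in that order.

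The step into lactation and the return were called for Ltc4s under all 19 alternatives. From pregnancy to lactation the signal fell by 1.28 (SE 0.233, adjusted p = 0.00293). From puberty to lactation it fell by 2.27 (SE 0.213, adjusted p = 6.77e-05), which is 4.83-fold. From lactation to involution it rose 3.70-fold (1.89, SE 0.233, adjusted p = 0.00035). Involution was less distinct from its neighbours in the order, puberty and pregnancy. The difference from puberty to involution was -0.39 (interval -0.87 to 0.10, adjusted p = 0.332) and that from pregnancy to involution was 0.61 (interval 0.08 to 1.14, adjusted p = 0.166).

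From puberty to pregnancy Ltc4s fell by 0.99 (SE 0.213, adjusted p = 0.019), but the call was lost in 8 of 19 alternatives, with adjusted p of 0.055 and 0.0642 without puberty replicate 2 or 3, and of 0.107 and 0.157 without pregnancy replicate 1 or 2. The second probe set, 162391_r_at, lay between 0.2 and 2.3 on all 9 arrays, under the floor, and gives no test of this pattern. Ltc4s and Pla2g12a 104343_f_at ran opposite to each other over the 9 arrays (r = -0.912). With the other probe set of Pla2g12a, 104342_i_at, r was -0.387.

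**Figure D2:**
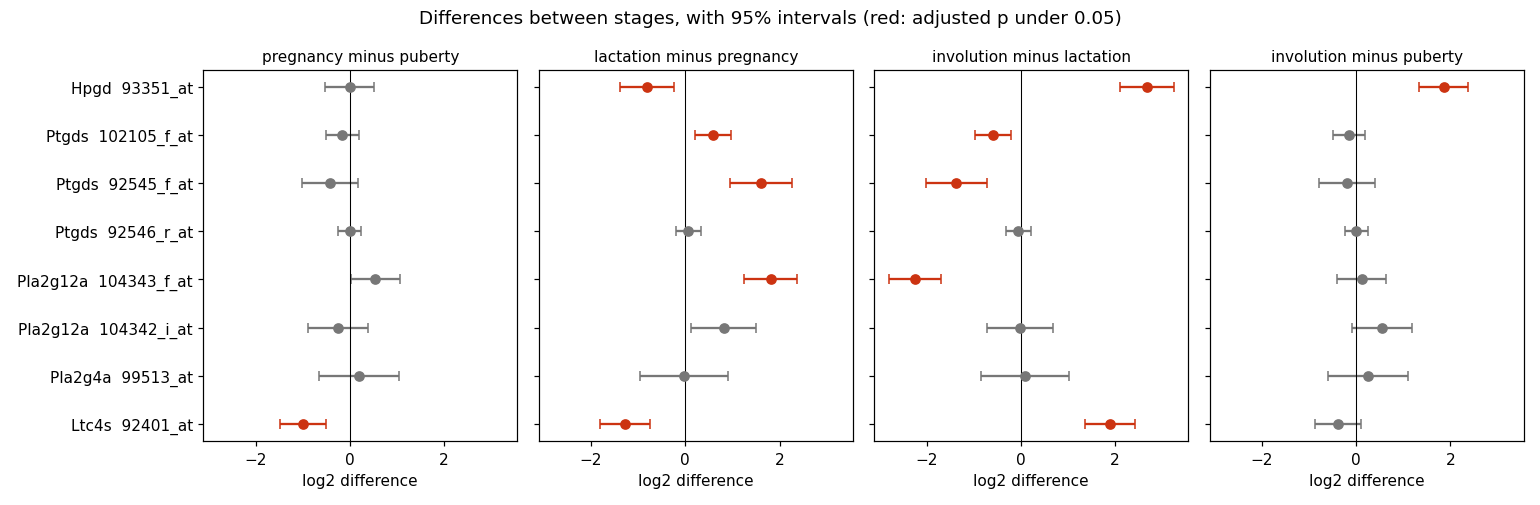
Fitted log2 differences (x axis) of the 8 tested probe sets (y axis) for 4 of the 6 comparisons of stages, with 95% intervals of limma's estimate and red points where the adjusted p was under 0.05. Hpgd and Ltc4s lie left of 0 from pregnancy to lactation and right of 0 from lactation to involution, at 2.68 and 1.89, and Pla2g12a 104343_f_at and the 2 _f_at probe sets of Ptgds take the opposite sides.

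The genes that were higher in lactation have a different kind of probe set from those that were lower. Hpgd 93351_at and Ltc4s 92401_at carry the plain ending _at. All probe sets of Pla2g12a and Ptgds end in _f_at, _i_at or _r_at, the names Affymetrix gave to sets with probes shared among a sequence family (f), with fewer unique probes than required (i) or with selection rules dropped (r). In the comparison of lactation with pregnancy, 19.9% of 7762 tested plain probe sets were higher and 21.2% lower. Of 846 tested _f_at sets 19.9% were higher and 15.5% lower, and of 162 _i_at sets 29% were higher and 13% lower. Of 539 _r_at sets, 47.5% were higher and 5.75% lower, with a median log2 difference of 0.72. As a class the _f_at sets, which carry the calls of Pla2g12a and Ptgds, rose as often as the plain sets but fell less often. Their median log2 difference was 0.12, against 0.02 for the plain sets. These shares describe a class and not a single probe set, and whether the probes also read related transcripts was not tested.

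**Figure D3:**
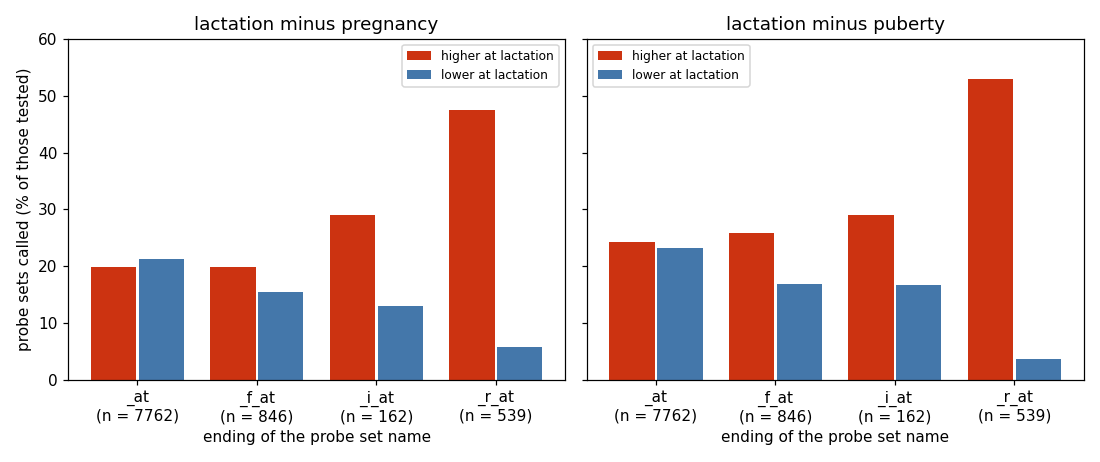
Share of tested probe sets (y axis, percent) called higher (red) or lower (blue) in lactation than in pregnancy (left) or puberty (right), by the ending of the probe set's name, with the number tested under each. The _r_at sets stand out with 47.5% higher and 5.75% lower against pregnancy, and the _f_at sets resemble the plain _at sets in the share that rose.

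The same pathway was followed more widely in 85 genes listed by role, the 8 genes included, of which 51 had a probe set, 45 were tested and 26 passed the F test (22 of 40 without the genes above), where 51.6% of all probe sets passed. Each gene is given by its brightest probe set. Between pregnancy and lactation 10 of the 45 rose and 14 fell (21.6% and 19.7% over all), and from lactation to involution 14 rose and 7 fell (22.1% and 23%). From puberty to lactation 9 were higher and 15 lower (26.1% and 21.8%). From puberty to pregnancy 2 rose and 4 fell (6.2% and 5.22%). In involution 5 were higher and 2 lower than at puberty (4.39% and 3.1%), and 3 higher and 2 lower than in pregnancy (4.03% and 3.1%).

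The enzymes of the leukotriene and lipoxygenase branch, with the neighbouring glutathione transferases and epoxide hydrolases, come next. Of 22 listed, 14 were tested and 13 passed the F test, against 51.6% of all probe sets. From pregnancy to lactation 2 rose and 9 fell (21.6% and 19.7% over all), with a median log2 difference of -0.81 against 0.07 over all tested. From lactation to involution 8 rose and 2 fell (22.1% and 23% over all), with a median of 1.13 against -0.03. Ephx2, the soluble epoxide hydrolase, had means of 518, 163, 61.0 and 230.3 from puberty through pregnancy and lactation to involution (F adjusted p = 9.57e-05) and, like Ltc4s, had all its puberty arrays above those of the other stages. It fell by 3.10 from puberty to lactation (adjusted p = 1.86e-05).

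Other members of this branch took their own course. Alox12e, an epidermal-type 12-lipoxygenase, was highest in pregnancy on both of its probe sets. On 161947_f_at the means were 42.5, 217, 114 and 76.2 (F adjusted p = 0.00064), and on 102269_at they were 3.68, 99.5, 9.83 and 7.35. Lta4h, which makes leukotriene B4 and so competes with Ltc4s for leukotriene A4, had means of 508, 458, 312 and 572 (F adjusted p = 0.00875). It fell by 0.57 from pregnancy to lactation and rose by 0.89 to involution, a smaller swing than that of Ltc4s, although the difference between the genes was not tested. Of the leukotriene receptors 1 of 6 was measured. Ltb4r1, a receptor of leukotriene B4, had means of 21.6, 16.7, 59.3 and 70.3 (F adjusted p = 0.000557), so it was higher in lactation than in pregnancy by 1.52 (adjusted p = 0.00164) and did not pass the test from lactation to involution (0.26, adjusted p = 0.408).

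Among phospholipases and other genes of arachidonate release, 13 of 24 were tested and 6 passed the F test (51.6% over all). Of the 13, 4 were called higher and 2 lower in lactation than in pregnancy (21.6% and 19.7% over all), the 4 including Pla2g1b (adjusted p = 0.0499), which did not pass the F test (0.122). Anxa1, annexin A1, which is known to restrain phospholipase A2, had means of 699, 814, 232 and 1076 (F adjusted p = 4.01e-05), and its 3 probe sets had the same order of stages. Mgll, monoacylglycerol lipase, had means of 746, 456, 155 and 781 (F adjusted p = 6.68e-05). Its other probe set, 97510_at, went the other way, with means of 19.1, 9.83, 66.1 and 28.8. Pla2g12a was the phospholipase A2 with the smallest F adjusted p in this list.

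Prostanoid synthases had 6 of 13 tested and 3 past the F test (51.6% over all). Ptges, the inducible prostaglandin E synthase, fell by 1.38 from pregnancy to lactation (adjusted p = 0.00191) and rose by 1.10 to involution (adjusted p = 0.00504), with means of 214, 249, 96.4 and 206. Ptgis, the prostacyclin synthase, had means of 70.4, 63.6, 32.1 and 51.3 (F adjusted p = 0.0145). Ptgds was the only synthase of the 6 called higher in lactation than in pregnancy, by 0.59 on 102105_f_at (adjusted p = 0.0207). Tbxas1, another of the 6, fell just short of a call with a difference of 0.65 (adjusted p = 0.0554). For inactivation and transport 3 of 8 listed genes were tested, and Hpgd was the only one of them past the F test, the others being the reductases Ptgr1 (adjusted p = 0.347) and Cbr3 (0.322).

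Of the 10 prostanoid receptors 8 were tested and 2 passed the F test (51.6% over all). Ptger2, a receptor of prostaglandin E2, was above the floor only in lactation, with means of 10.2, 17.3, 37.9 and 15.2 (F adjusted p = 0.00113). Ptger3, another receptor of prostaglandin E2, had means of 45.1, 23.8, 1.99 and 66.4 (F adjusted p = 0.0128), with both lactation arrays under the floor, as Hpgd was on lactation replicate 2. Pla2g2a, Ptger1 and Ptgdr, like Ptgs2, were under the floor on all 9 arrays.

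**Figure D4:**
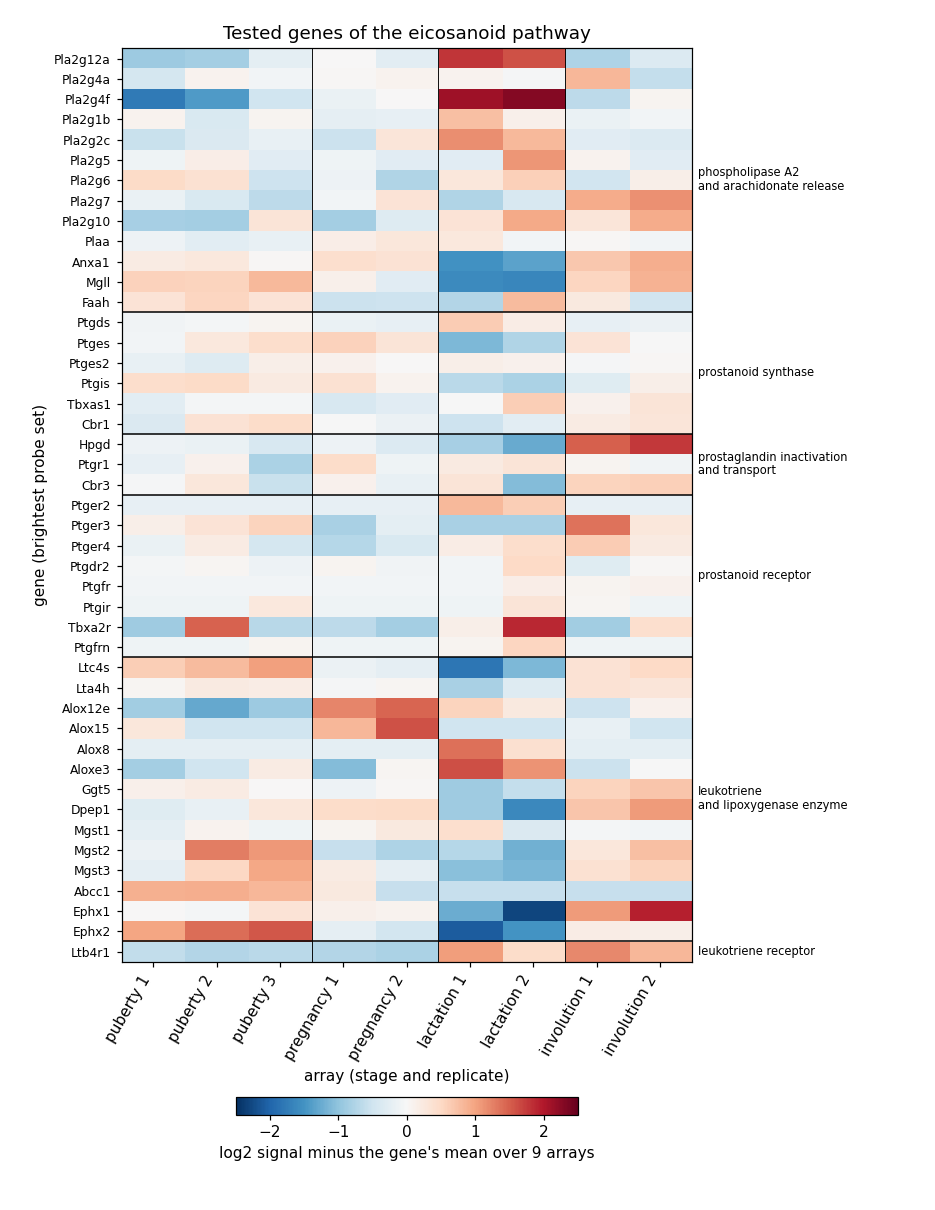
Log2 signal relative to that gene's average on all 9 arrays (colour) for the 45 tested genes of the pathway (rows, brightest probe set of each, grouped by role) on each array (columns). Many rows of the leukotriene and lipoxygenase block are blue on the lactation arrays, where 9 of 14 fell from pregnancy, Hpgd is red on the involution arrays, and Pla2g12a and Pla2g4f (an _r_at set) are red on the lactation arrays.

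The genes whose log2 signals were most like those of each gene over the 9 arrays were sought among 7089 genes, as a description. For Hpgd they were Ctss, the lysosomal protease cathepsin S (r = 0.9914), Cd300c2, a receptor of myeloid cells (r = 0.9814), and Mpeg1, a pore-forming protein of macrophages (r = 0.9811). Mpeg1 had means of 474 at puberty, 501 in pregnancy, 213 in lactation and 1600 in involution. Ctss is one of the macrophage markers used here and is named with Hpgd in the study's involution group. For Ltc4s they were Slc1a5, a glutamine transporter (r = 0.9912), Ndrg2 (r = 0.9888) and Pex6, a factor of peroxisome assembly (r = 0.9862). For Pla2g12a 104343_f_at the 3 closest were all _r_at probe sets, of Plk3 (r = 0.9904), Ung (r = 0.9860) and Trp53-ps (r = 0.9845). The plain probe set of Ung, 102792_at, did not follow, with means of 99.9, 137, 132 and 111 (F adjusted p = 0.329). For Ptgds 102105_f_at they were Kcnd3 (r = 0.9772), Il18rap (r = 0.9761) and Syt2 (r = 0.9742). These genes were dim, with lactation means of 102, 28.4 and 61.1. In the other stages their means lay near or under the floor, which takes out much of any difference among those stages.

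Summed over each list, macrophage and mast cell markers were lowest in lactation, as Hpgd and Ltc4s were. Both lists were highest in involution, as Hpgd was, whereas Ltc4s was highest at puberty. The summed signal of 11 macrophage markers, led by Ctss and Lyz2, ran from 6325 to 7119 at puberty, 6598 to 6891 in pregnancy, 3460 to 4503 in lactation and 11082 to 13914 in involution. Of the 11, 8 fell from pregnancy to lactation (19.7% over all), 9 rose from lactation to involution (22.1%), and 7 were higher in involution than at puberty (4.39%), while 0 lay under the floor on all arrays. Cd14, Adgre1 and Msr1 were not among the 8 that fell. Cd14 had means of 371, 719, 1242 and 2452 from puberty to involution. It was higher in lactation than at puberty (1.69 on the log2 scale, adjusted p = 0.00315). C1qa had means of 1102, 1073, 562 and 632.5, and its difference from lactation to involution did not pass the test (0.10, adjusted p = 0.785). The median log2 difference of the 11 markers from lactation to involution was 1.82, beside 2.68 for Hpgd. Of 10 mast cell markers 9 had a probe set, with sums of 674 to 736, 904 to 981, 522 to 631 and 1555 to 2039 in the same order. Of the 6 tested, 3 fell from pregnancy to lactation and 3 rose to involution. Cma1 and Tpsb2 led the list, and Tpsab1, Ms4a2 and Fcer1a lay under the floor on all arrays. Tpsb2 went another way, with means of 227, 259, 399.9 and 572 and a higher level in lactation than at puberty (0.82 on the log2 scale, adjusted p = 0.0297), and Kit was highest in pregnancy, with a mean of 315.

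Markers of B and T cells, adipocytes and fibroblasts were low in lactation as well, as Ltc4s was, but those of neutrophils and platelets were not. Markers of B and T cells (8 measured, led by Ighm and Cd79a) summed to 3360 to 3659 at puberty, 1507 to 1844 in pregnancy, 613 to 1433 in lactation and 4100 to 4312 in involution. Ighm, the brightest, had means of 1472 at puberty and 2650 in involution and so weighs heavily in these sums. Over the 8 markers the median log2 difference from puberty to involution was -0.55, with 0 called higher and 0 lower. Adipocyte markers (6 measured, led by Adipoq and Retn) summed to 9309 to 12257, 5778 to 8458, 1896 to 2320 and 10591 to 12520. Fibroblast markers (7 measured, led by Dcn and Col1a1) summed to 12189 to 16009, 13558 to 14731, 3758 to 4669 and 8400 to 8915. Skeletal muscle markers (7 measured, led by Acta1 and Myl1) stood out at puberty, with 9035 to 22151 against at most 1185 elsewhere. Markers of neutrophils (led by Elane and Camp) had Ly6g and Cxcr2 under the floor on all arrays, and of 4 measured platelet markers (led by Gp9 and Itgb3) Pf4 and Gp1bb were under it. Neutrophil markers summed to 277 to 943.5 at puberty, 187 to 193 in pregnancy, 273 to 398 in lactation and 260 to 263 in involution. Platelet markers summed to 34.8 to 46.9, 45.7 to 49.3, 60.4 to 93.9 and 41.1 to 53.5 in the same order.

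Markers of epithelium did not share 1 course. Luminal markers (8 measured, led by Elf5 and Krt19) summed to 1890 to 3424 at puberty, 5793 to 6638 in pregnancy, 4637 to 5323 in lactation and 3253 to 4842 in involution, and basal markers (6 measured, led by Acta2 and Myh11) to 694 to 908, 2729 to 2883, 1763 to 1869 and 1420 to 1539. Of the 8 luminal markers 1 rose and 5 fell from pregnancy to lactation, and of 5 tested basal markers 0 rose and 3 fell (21.6% and 19.7% over all). The 1 that rose, Elf5, had means of 39.2, 1155, 3008 and 533.0, highest in lactation as Pla2g12a 104343_f_at was, and fell by 2.50 to involution (adjusted p = 8.64e-05). Cldn7 (an _f_at set, 253.9 in pregnancy and 303 in lactation), Epcam (180.4 and 213) and Krt17 (an _r_at set, 59.1 and 123) also had their highest mean in lactation. Their differences from pregnancy did not pass the test (adjusted p = 0.539, 0.434 and 0.0599). Endothelial markers (7 measured, led by Cdh5 and Vwf) summed to 777 to 799.6, 625.5 to 633, 432.5 to 436.6 and 745 to 813. The part of any of these cell types in the differences of Hpgd, Ltc4s, Pla2g12a and Ptgds was not tested.

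**Figure D5:**
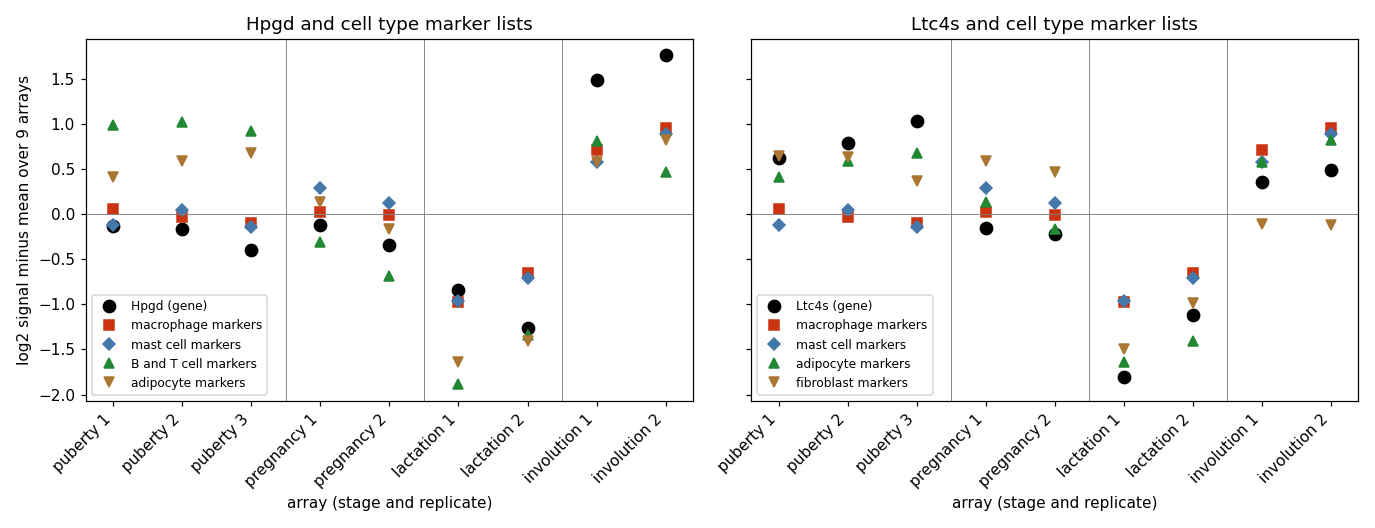
Log2 signal minus the mean over the 9 arrays (y axis) on each array (x axis) for Hpgd (left) and Ltc4s (right), with the mean of the same measure over the marker genes of each cell type. Hpgd and the macrophage and mast cell markers are lowest in lactation and highest in involution, where Hpgd lies above the markers. Ltc4s is highest at puberty, where macrophage and mast cell markers lie near 0. Adipocyte markers (0.414 to 0.676) and fibroblast markers (0.365 to 0.644) lie above 0 at puberty, as Ltc4s does. So do B and T cell markers (0.922 to 1.019), which are drawn only on the left.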

How the data were processed

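All 9 arrays were assigned to a stage from the labels. The authors computed the deposited signal intensity of each probe set and array with MAS5 (version not given in the sources used here) and set every array to 1 scale, on which the trimmed mean is 125.1. The values are linear, and the depth of an array is its brightness, with medians of 48.1 to 53.5, so that the number of arrays limits the precision. From these intensities 66 controls were removed, the arrays were brought to equal medians (factors of 0.948 to 1.06), a floor of 20 was set and log2 was taken. Genes were named from the platform annotation, where 10833 probe sets carry 1 symbol, 396 several and 1193 are not listed, and 10817 were updated through RefSeq's gene table.

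limma 3.58.1 in R 4.3.3 (lmFit, eBayes with a trend) was fitted to all 9 arrays and 9783 probe sets, with 5 residual degrees of freedom, and was tested on simulated data. Printed signals are without the floor, and folds are on the fitted scale with it. The named genes are the 8 genes, up to 3 per role with the smallest F adjusted p, the 3 most alike per gene past the F test, the 2 brightest markers per list and those under the floor on all arrays. Lta4h, Ptgr1, Cbr3, Tbxas1, Pla2g4f, Pla2g1b, Kit, Cd14, Adgre1, Msr1, C1qa, Cldn7, Epcam and Krt17 were named after their values were seen. The genes, lists and tests were chosen with earlier results of these data known. Alternatives were the deposited scale, other scaling, floor, constant, filter and fit, the replicate number as a block, and leaving out each array in turn. Figures were drawn with matplotlib 3.10.9.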

Additional observations from a re-analysis of the deposited data

How the results depend on the processing

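Of the 18 log2 differences called, none reversed in 339 refits over 19 alternatives, 301 kept the call and 38 lost it. The count of probe sets past the F test stayed between 4 and 6. Every count of 6 given here comes from the fit without lactation replicate 2, in which Ptgds 92546_r_at passes the F test with all remaining arrays but 1 at the floor, a call with no spread behind it. From puberty to pregnancy the count of 1 (Ltc4s) became 0 with a floor of 50, with no filter, in a plain analysis of variance and with the replicate number as a block, and lay between 0 and 1 when 1 array was left out. From puberty to lactation the count of 5 became 3 with a floor of 50, and lay between 3 and 6 when 1 array was left out. From pregnancy to lactation it also lay between 3 and 6, with 3 without pregnancy replicate 1 or 2, and from lactation to involution between 4 and 6. From pregnancy to involution it lay between 0 and 1, with 0 without pregnancy replicate 2, and from puberty to involution it was 1.

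For arrays with the same replicate number, deviations from the stage means correlated with r of -0.153 to 0.049. In a stage of 2 arrays the 2 deviations are equal and opposite, so these values cannot show whether such arrays shared a batch. With the replicate number as a block, 4 probe sets passed the F test, 4 were called from pregnancy to lactation, 4 from puberty to lactation, 5 from lactation to involution, 1 from puberty to involution and 1 from pregnancy to involution. With 2 arrays in most stages, small differences of dim probe sets such as Pla2g4a could have been missed.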
